A study of Homo sapiens with 20 samples.

Results

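The genes described here are the human metallothioneins MT1A, MT1E, MT1F, MT1G, MT1H, MT1M, MT1X and MT2A in OVCAR8 tumors from mice given sodium gluconate or PBS. Of the 8 genes, 7 had a row among the 24196 genes of the expression table, and MT1A was not analysed here. They were chosen from the results of the same comparison: MT1M had one of the lowest unadjusted p-values of all genes between gluconate and PBS tumors, and the others are its family. The differences between groups in these genes are therefore given as a description, with no test. Of the 7 genes, 5 had a mean of at least 0.5 FPKM, the minimum used for all genes, and MT1G and MT1H lay under it. FPKM is the number of sequenced fragments of a gene, scaled by its length and by the fragments of the library, so it can be compared between genes.

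OVCAR8 is a human high-grade serous ovarian cancer cell line. The tumors were grown orthotopically, in the fat pad of the ovary, in NSG mice aged 6 weeks at injection. NSG is an immunodeficient strain that lacks T, B and NK cells but keeps myeloid cells. The study names the tumors of its gluconate treatment as OVCAR8-sgNC-luc, from cells with a control guide and a luciferase tag. In its efficacy experiment, the mice received PBS or 1 mg/kg sodium gluconate by intraperitoneal injection once a week for 35 days. Bulk polyA RNA-seq was analysed for 4 PBS tumors and 4 gluconate tumors, and 12 libraries of OVCAR8 cells were not analysed here. The labels call these 8 libraries tumors, whereas the text of the paper describes its gluconate RNA-seq as one of treated OVCAR8 cells, and the labels were followed. All tumors of both groups came from this 1 cell line. The table named its columns by the letters C and T, read as PBS and gluconate from the log2(T/C) axis of the study's own plot and because no other groups had 4 libraries. The labels number the libraries as replicate tumors without saying whether each came from its own mouse, so p-values measure only the spread between these libraries.

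Metallothioneins are small, cysteine-rich proteins that bind zinc and copper, and also cadmium. They buffer the pool of free zinc in the cell, and their genes are switched on by the zinc-sensing transcription factor MTF1, which binds short metal response elements in their promoters, and also by glucocorticoids, oxidative stress and interleukin-6. MT2A is usually the main form in human tissues, while the MT1 genes are near-copies that arose by duplication and are expressed in varying combinations.

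All 8 genes lie in one cluster on the long arm of chromosome 16. In GENCODE 29, on build GRCh38, MT2A is at chr16:56608199-56609497, MT1E at chr16:56625475-56627112 and MT1M at chr16:56632233-56633986. MT1A follows at chr16:56638666-56640087, MT1F at chr16:56657694-56660698 and MT1G at chr16:56666731-56668065. MT1H is at chr16:56669814-56671129 and MT1X at chr16:56682424-56684196. MT1G is on the minus strand and the others on the plus strand. The transcript used for each gene has 3 exons and a coding sequence of 186 bases.

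The coding sequences are printed because the genes are close copies, and the level of each depends on reads that tell it from the others. Below are the coding sequences of the 5 expressed members from GENCODE 29, 5′ to 3′, with capitals at the bases that are not those of MT2A at the same position. MT2A itself is in lower case.
MT2A: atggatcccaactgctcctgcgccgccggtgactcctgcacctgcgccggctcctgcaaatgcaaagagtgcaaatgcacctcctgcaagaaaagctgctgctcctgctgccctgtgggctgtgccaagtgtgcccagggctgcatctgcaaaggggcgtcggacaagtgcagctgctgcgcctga
MT1E: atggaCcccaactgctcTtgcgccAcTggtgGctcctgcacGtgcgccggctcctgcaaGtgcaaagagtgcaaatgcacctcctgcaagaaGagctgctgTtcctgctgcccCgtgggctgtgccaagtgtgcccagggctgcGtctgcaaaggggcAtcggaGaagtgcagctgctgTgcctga
MT1X: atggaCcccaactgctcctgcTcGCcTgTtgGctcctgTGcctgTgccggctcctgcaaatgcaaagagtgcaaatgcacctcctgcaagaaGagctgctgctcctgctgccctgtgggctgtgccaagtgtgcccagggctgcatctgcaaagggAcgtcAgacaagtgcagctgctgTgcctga
MT1M: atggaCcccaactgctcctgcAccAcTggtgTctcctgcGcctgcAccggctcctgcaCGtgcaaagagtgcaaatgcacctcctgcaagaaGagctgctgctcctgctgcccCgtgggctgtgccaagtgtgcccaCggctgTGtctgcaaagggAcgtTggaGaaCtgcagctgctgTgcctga
MT1F: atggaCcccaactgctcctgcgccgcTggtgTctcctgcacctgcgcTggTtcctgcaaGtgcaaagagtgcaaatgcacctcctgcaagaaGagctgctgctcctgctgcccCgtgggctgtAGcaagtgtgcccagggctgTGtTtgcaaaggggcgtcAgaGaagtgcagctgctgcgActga
MT1M had 19 bases unlike those of MT2A, the highest number among the 7 MT1 genes, and MT1G the lowest with 9. The sequence of MT1M was 92.5% identical to that of MT1E and 90.9% identical to that of MT1F, with which it shared a run of 64 identical bases.

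Most of each transcript was found in no other gene over the length of a read, 150 bases in the design text. Of all such windows of the transcripts of MT1M, MT1E, MT1F and MT2A, 100% were found in no other gene of GENCODE 29, and for MT1X it was 94.4%. With shorter windows of 50 bases the share was 92.9% for MT1M, 94.7% for MT1E, 96.4% for MT1F and 95.1% for MT2A. For MT1X it was 54.9%, and windows of MT1X were also found in the pseudogene MT1XP1. How the authors counted reads that fit several copies is not given in the sources used here, so the split between members is uncertain, for MT1X above all.

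Promoters are shown because metal response elements lie there. RefSeq windows on GRCh38.p14 were at hand for 3 of the 8 genes, and the 250 bases before the start of transcription given by RefSeq are printed 5′ to 3′, all on the plus strand. GENCODE 29 starts MT2A and MT1X further upstream, so the window of MT2A lies inside the gene as given above and that of MT1X runs into it. Capitals mark matches on either strand to TGCACNC or TGCGCNC, the core of the metal response element, where N is any base.
MT2A, chr16:56608334-56608583: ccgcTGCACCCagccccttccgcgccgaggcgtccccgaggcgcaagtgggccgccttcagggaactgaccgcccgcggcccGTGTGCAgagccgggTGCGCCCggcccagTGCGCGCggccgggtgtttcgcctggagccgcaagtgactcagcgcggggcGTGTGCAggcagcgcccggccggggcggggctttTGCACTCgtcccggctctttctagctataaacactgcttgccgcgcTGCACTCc
MT1X, chr16:56682220-56682469: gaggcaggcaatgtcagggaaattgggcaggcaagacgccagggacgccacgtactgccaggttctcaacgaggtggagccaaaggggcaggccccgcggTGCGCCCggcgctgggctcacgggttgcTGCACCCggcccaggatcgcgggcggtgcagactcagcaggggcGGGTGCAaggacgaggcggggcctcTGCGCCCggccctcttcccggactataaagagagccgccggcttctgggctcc
MT1H, chr16:56669564-56669813: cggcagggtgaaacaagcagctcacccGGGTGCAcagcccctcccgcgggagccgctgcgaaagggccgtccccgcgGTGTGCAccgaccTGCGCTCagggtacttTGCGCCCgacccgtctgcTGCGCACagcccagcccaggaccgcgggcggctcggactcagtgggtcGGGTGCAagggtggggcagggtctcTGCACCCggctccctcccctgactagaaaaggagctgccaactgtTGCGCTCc
MT2A had 7 matches, MT1X 4 and MT1H 8, and no matches overlapped. Of 35116 promoter windows of this length, 24.8% held at least 1 match to either core and 0.370% held at least 4. TGCACNC alone was found in 9.87% of windows and TGCGCNC in 16.8%. MT2A and MT1X are among the most abundant mRNAs described below and MT1H was listed at 0 in 7 of 8 libraries, so the number of these letters did not follow the level. A match is a description of the letters and not evidence of binding.

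Sequencing depth was even except in 1 library. The recovered fragments on listed genes ranged from 39248707 to 46457636 in 7 libraries and came to 3944893 in PBS replicate 4, which listed 15514 genes above 0 against 19991 to 20251 in the others. Its log2 FPKM correlated with the others at r of 0.938 to 0.951 across genes, while the lowest r among the other 7 libraries was 0.980. PBS replicate 4 was kept, and the differences that moved most without it are given both ways. Of 12486 genes tested, gluconate tumors had 24 higher (0.192%) and 13 lower by at least 2-fold with an unadjusted p under 0.05, and without PBS replicate 4 these counts were 3 higher and 8 lower. No gene had an adjusted p under 0.05 (limma with Benjamini-Hochberg adjustment). At an unadjusted p under 0.05 there were 577 genes, fewer than the 1 in 20 that chance gives. Without PBS replicate 4 there were 778 of 12530, more than 1 in 20. Carcinoma markers were abundant: KRT8 and KRT18, the keratins of simple epithelia, had means of 906 and 780 FPKM in PBS tumors, and PAX8, a Müllerian lineage factor, 41.1 FPKM. MUC16, which encodes CA125, and CDH6 were under 0.5 FPKM in every library.

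MT2A, the most widely expressed metallothionein, was by far the most abundant member and ranked 26 to 50 among all genes. It had 1261, 1130, 1650 and 1353 FPKM in PBS replicates 1 to 4 and 1499, 1194, 1428 and 1712 FPKM in gluconate replicates 1 to 4. The groups overlapped over most of their range, with the lowest value in PBS replicate 2 and the highest in gluconate replicate 4. The means were 1348 ± 221 FPKM in PBS tumors and 1458 ± 214 FPKM in gluconate tumors (SD, n = 4 each). The difference was 0.12 on the log2(FPKM + 0.1) scale with a moderated standard error of 0.14, and 0.12 without PBS replicate 4. The MT2A values rested on 20492 to 29353 fragments in 7 libraries and on 2145 in PBS replicate 4, so counting error was small beside the spread between tumors.

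MT1E, the member next in level, had 274, 191, 240 and 159 FPKM in PBS replicates 1 to 4. In gluconate replicates 1 to 4 it had 354, 258, 309 and 393 FPKM. A single pair of values crossed, PBS replicate 1 being above gluconate replicate 2. The means were 216 ± 50.9 and 328 ± 58.2 FPKM (SD, n = 4 each). The log2 difference was 0.62 with a standard error of 0.18, and it was 0.48 without PBS replicate 4, which held the lowest value.

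MT1X had the same order of tumors as MT1E within each group, at a slightly lower level. It had 198, 152, 175 and 128 FPKM in PBS replicates 1 to 4 and 254, 164, 239 and 315 FPKM in gluconate replicates 1 to 4. Gluconate replicate 2 lay among the PBS tumors, and the other 3 gluconate tumors lay above all PBS tumors. The means were 163 ± 30.1 and 243 ± 61.9 FPKM (SD, n = 4 each), a log2 difference of 0.55 with a standard error of 0.20. Without PBS replicate 4 the difference was 0.44, and without gluconate replicate 4 it was 0.41.

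MT1M, a member known mainly from liver, was expressed at a far lower level than these 3 genes and was the one for which the family was chosen. In PBS replicates 1 to 4 it had 9.64, 10.4, 6.17 and 6.36 FPKM. In gluconate replicates 1 to 4 it had 16.2, 15.5, 17.4 and 40.1 FPKM. All 4 gluconate tumors lay above all 4 PBS tumors, and gluconate replicate 4 was more than double any other tumor. The means were 8.15 ± 2.20 FPKM in PBS tumors and 22.3 ± 11.9 FPKM in gluconate tumors (SD, n = 4 each). The log2 difference was 1.36 with a standard error of 0.31, or 2.56-fold. Without PBS replicate 4 it was 1.25, and without gluconate replicate 4 it was 1.04, when the gluconate mean became 16.4 ± 0.983 FPKM (SD, n = 3). The groups stayed apart in both cases.

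The fragments behind MT1M numbered 98 to 193 in PBS replicates 1 to 3 and 260 to 682 in the gluconate tumors, but 10 in PBS replicate 4. Its exact 95% Poisson interval there ran from 3.05 to 11.7 FPKM, and its upper end was under the lowest gluconate value. In gluconate replicate 4 the interval ran from 37.1 to 43.2 FPKM. These intervals cover counting error only.

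MT1F, the least abundant of the 5 expressed members, had 3.29, 4.51, 2.90 and 2.71 FPKM in PBS replicates 1 to 4. Gluconate replicates 1 to 4 had 2.55, 3.05, 2.89 and 7.91 FPKM. Apart from gluconate replicate 4, the gluconate tumors lay within or under the PBS range. The log2 difference was 0.15 with a standard error of 0.33, and without gluconate replicate 4 it turned to -0.21. PBS replicate 4 rested on 5 fragments of MT1F, with an interval of 0.879 to 6.32 FPKM, and gluconate replicate 4 on 158.

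MT1G and MT1H were listed at 0 almost throughout. MT1G had 0.0524 FPKM in PBS replicate 2 and was listed at 0 in the other 7 libraries. MT1H had 0.118 FPKM in gluconate replicate 2 and was listed at 0 in the other 7. How many fragments lay behind these single values could not be read from the table. Of 13 other metallothionein genes and pseudogenes looked for, MT1B and MT3 had rows. MT1B had 0.0595 FPKM in gluconate replicate 2 only, and MT3, the form known from brain, had 0.0576 FPKM in gluconate replicate 2 and 0.0576 in gluconate replicate 4.

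**Figure D1:**
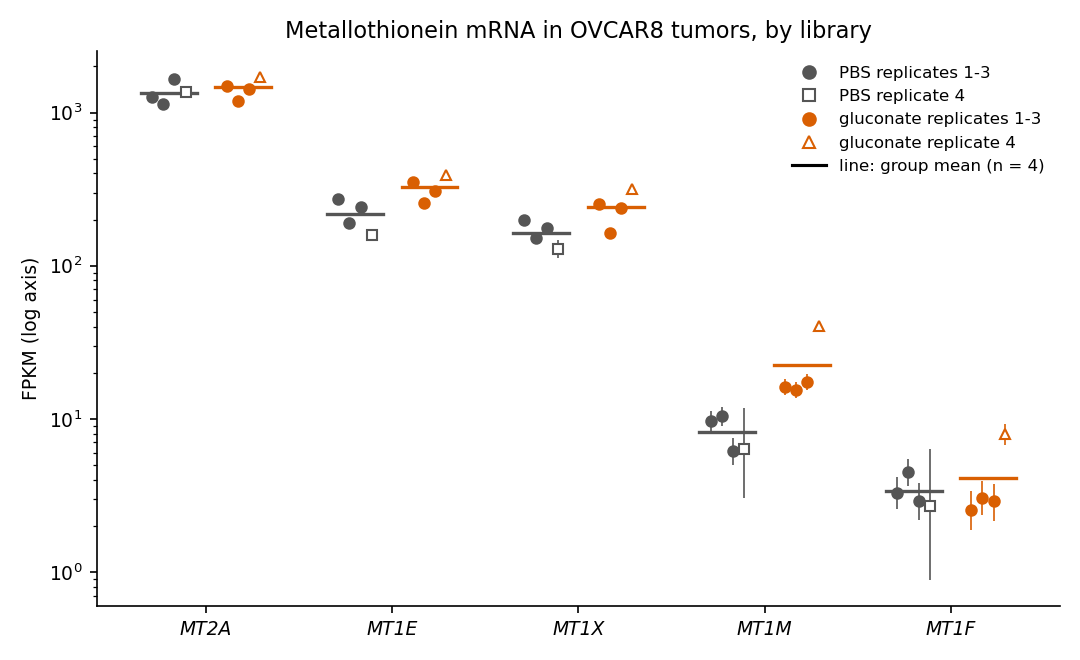
FPKM on a log axis of the 5 expressed metallothionein genes in 4 PBS and 4 gluconate tumors, 1 point a library, with the group mean as a line and exact 95% Poisson intervals as vertical bars (counting error only, mostly smaller than the points). MT1M is the gene whose groups do not overlap, from 6.17 to 10.4 FPKM in PBS tumors and from 15.5 to 40.1 FPKM in gluconate tumors, and gluconate replicate 4, the open triangle, is the highest point of every gene.

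Counted over the family, all 5 expressed members had a higher mean log2 level in gluconate tumors, against 66.4% of all genes tested. The groups of 1 member, again MT1M, did not overlap and were higher in gluconate, which held for 2.08% of all genes tested, and for 2.43% without PBS replicate 4. The 5 members had a median log2 difference of 0.55, and the 12486 genes tested had one of 0.07. Without PBS replicate 4 the medians were 0.44 for the members and -0.0029 for all genes tested. Since this contrast chose MT1M, nothing is read from these counts and medians.

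**Figure D2:**
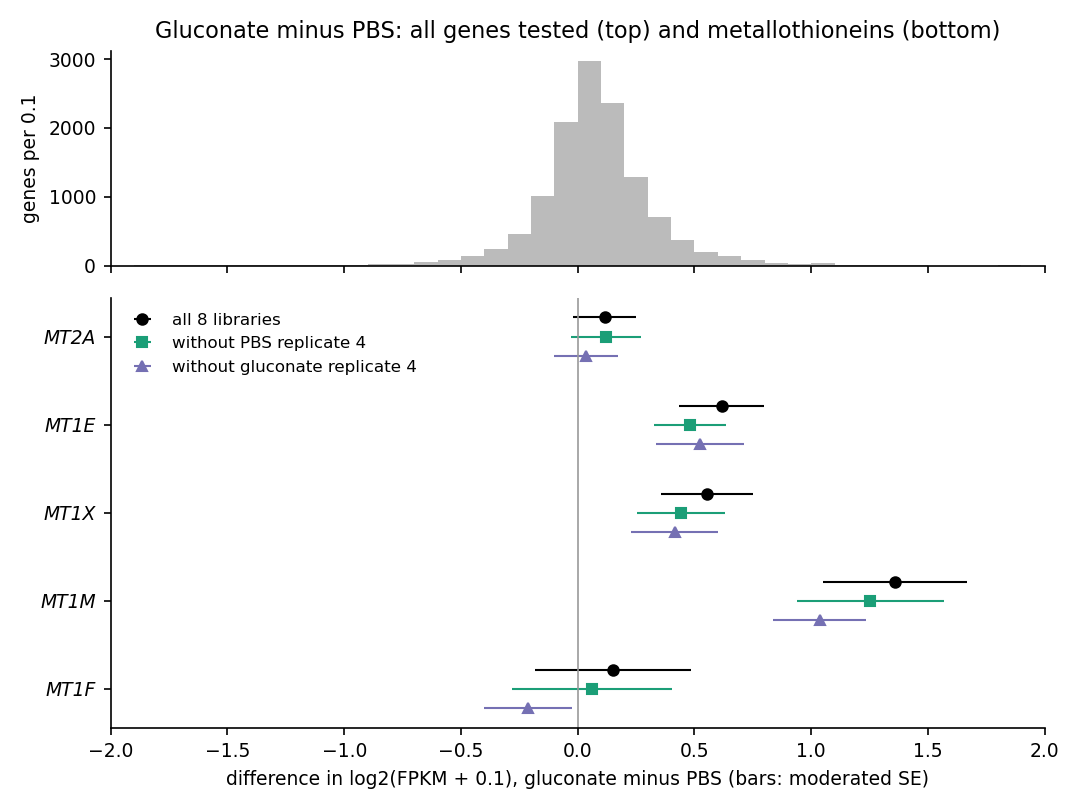
Upper panel: number of genes per 0.1 of the log2(FPKM + 0.1) difference, gluconate minus PBS, over the 12486 genes tested (5 genes lie beyond the axis limits of -2 and 2). Lower panel: the same difference for each metallothionein with its moderated standard error, with all 8 libraries and without PBS replicate 4 or gluconate replicate 4, where MT1M ranges from 1.04 to 1.36, MT2A stays between 0.03 and 0.12, and MT1F crosses 0.

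The order of the levels was MT2A, MT1E, MT1X, MT1M and MT1F in all 8 libraries. MT1E and MT1X were close neighbours in this order, with MT1E at 1.24 to 1.58 times the FPKM of MT1X within a library. Across libraries their ranges overlapped, from 159 to 393 FPKM for MT1E and from 128 to 315 FPKM for MT1X. MT2A did not overlap any other member, and neither did MT1X and MT1M. The lowest MT1M value, 6.17 FPKM in PBS replicate 3, was below the highest MT1F value, 7.91 FPKM in gluconate replicate 4, although MT1M was above MT1F inside each library.

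Together the 5 genes made up 0.366% to 0.583% of all FPKM. Their summed level was 1739 ± 248 FPKM in PBS tumors and 2056 ± 344 FPKM in gluconate tumors (SD, n = 4 each), and the groups overlapped. Summed over the MT1 genes alone, the level was 391 ± 81.6 and 598 ± 131 FPKM, again with overlap, since gluconate replicate 2 had 441 FPKM and PBS replicate 1 had 485 FPKM. MT2A thus carried most of the pool, and its share was 77.4% ± 4.27 in PBS tumors and 71.1% ± 1.55 in gluconate tumors (SD, n = 4 each). The shares spanned 72.2% to 82.0% and 69.4% to 73.0%, and without PBS replicate 4 the PBS share was 75.9% ± 3.65 (SD, n = 3).

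Ratios between members within a library do not depend on how the library was scaled. MT1M stood at 2.13 to 2.93 times the FPKM of MT1F in PBS tumors and at 5.06 to 6.36 times in gluconate tumors. These ranges did not overlap, and gluconate replicate 4, where both genes were highest, had a ratio of 5.06 like that of the other gluconate tumors. In PBS replicate 4 the ratio was 2.35 and rested on 10 fragments of MT1M and 5 of MT1F. Without this library the PBS range was the same. MT2A stood at 108 to 267 times MT1M in PBS tumors and at 42.7 to 92.5 times in gluconate tumors, also without overlap. The other ratios with MT1M overlapped: MT1E stood at 18.3 to 38.9 times MT1M in PBS and 9.82 to 21.8 times in gluconate tumors, and MT1X at 14.5 to 28.4 and 7.85 to 15.7 times. The ratio of MT1E to MT1X overlapped as well, with means of 1.31 ± 0.0730 and 1.38 ± 0.145 (SD, n = 4 each). As MT1M entered both ratios that separated, these are not independent of its own difference between the groups.

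**Figure D3:**
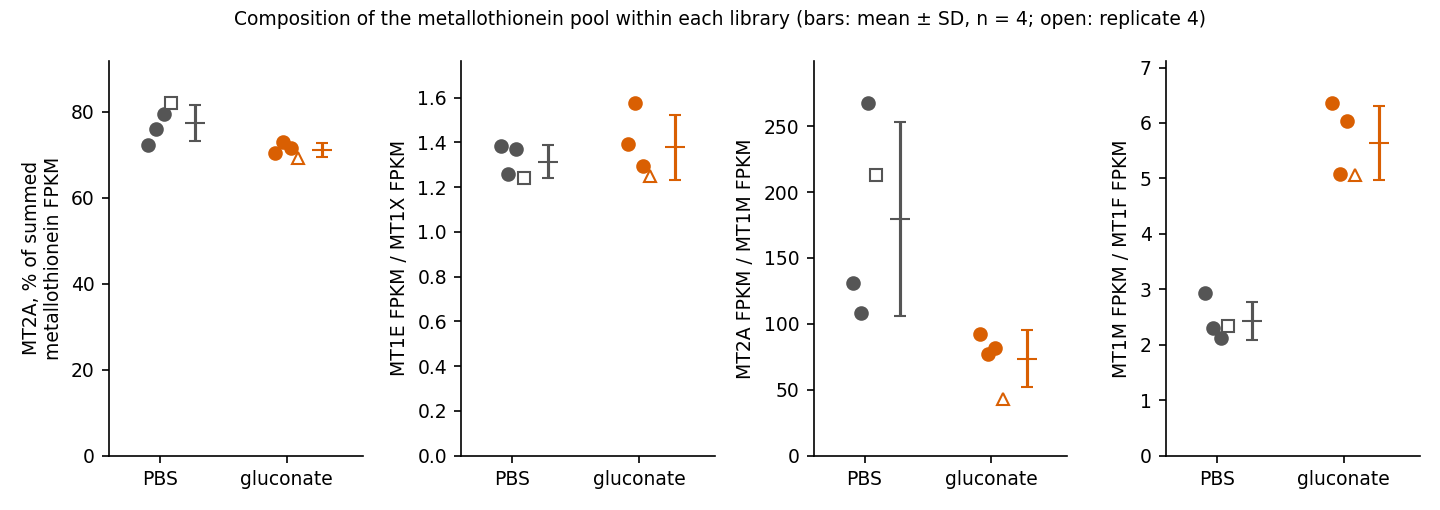
Share of MT2A in the summed metallothionein FPKM, and ratios of FPKM between members, in each of 4 PBS and 4 gluconate tumors, with mean ± SD (n = 4) beside the points. The 2 ratios with MT1M drawn here separate the groups, MT1M to MT1F lying at 2.13 to 2.93 in PBS and 5.06 to 6.36 in gluconate tumors, while MT1E to MT1X lies between 1.24 and 1.58 throughout.

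Some tumors held the same place for several members. Gluconate replicate 4 was the highest of the 8 libraries for all 5 expressed members, a place it held for 15.2% of all genes tested. Gluconate replicate 2 was the lowest gluconate tumor for 4 of the 5, all but MT1F, and for 17.7% of all genes tested. PBS replicate 4 was the lowest PBS tumor for 3 of the 5, namely MT1E, MT1X and MT1F, beside 63.9% of all genes tested. That count is near the share over all genes and says nothing particular about the members.

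Of the 10 pairs of members, MT1E and MT1X had the highest correlation over all 8 libraries. Pearson's r of their log2 levels was 0.96 and Spearman's rho 0.98. With the group means removed r was 0.94, and without the 2 libraries farthest from the median of MT1E it was 0.93. MT1F and MT1M had an r of 0.65 over 8 libraries, which was 0.95 with the group means removed, above that of MT1E and MT1X, and -0.06 without the 2 farthest libraries. MT2A and MT1M had an r of 0.31. These are descriptions across 8 libraries of 2 groups, with no test, and the points share the depth and scaling of each library.

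The genes whose log2 level was most like the mean log2 level of the 5 members were sought among 12481 other genes, again as a description. Over the 7 libraries without PBS replicate 4 they were UBXN11 (r = 0.989), TSPAN3 (r = 0.986), THBS1 (r = 0.986), SPCS1 (r = 0.976) and SCARF2 (r = 0.975). THBS1, which encodes the matrix protein thrombospondin 1, had 69.0 ± 17.6 FPKM in PBS and 102 ± 26.9 FPKM in gluconate tumors (SD, n = 4 each). Over all 8 libraries SPCS1, a subunit of the signal peptidase, came first with r = 0.976, followed by ADAMTSL5, CDKN2B, IAH1 and STING1. Only SPCS1 was in both lists of 5, and UBXN11 dropped from 0.989 to 0.685 when PBS replicate 4 was added.

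The pathways that act on metallothionein genes, or share their metals, were described from lists of genes chosen for their function. Earlier results of these data were known when the lists were chosen, so the counts in all lists below are a description. With 6 neighbours of the cluster included, 70 genes were tested, of which 2 were higher and 5 lower at an unadjusted p under 0.05, and none had an adjusted p under 0.05. Over all genes tested, 3.13% were higher and 1.49% lower at that unadjusted p. Without PBS replicate 4 the balance turned, with 2.85% higher and 3.36% lower, and 2 genes of these lists were higher and 7 lower among 69 tested.

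MTF1, the factor that senses zinc, had 2.44 ± 0.562 FPKM in PBS and 2.68 ± 0.123 FPKM in gluconate tumors (SD, n = 4 each). Its log2 difference was 0.16 with all libraries and 0.01 without PBS replicate 4. SLC30A1 encodes the zinc exporter of the plasma membrane and is itself a target of MTF1. Its level was 8.08, 5.70, 4.22 and 2.66 FPKM in PBS replicates 1 to 4 and 5.16, 6.79, 6.13 and 8.96 FPKM in gluconate replicates 1 to 4, so the groups overlapped, with the highest value in gluconate replicate 4. The log2 difference was 0.46 with a standard error of 0.31, and 0.19 without PBS replicate 4.

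Of 7 zinc exporters tested, none had an unadjusted p under 0.05, and their median log2 difference was 0.18. Without PBS replicate 4 the median was 0.08, and 1 exporter, SLC30A7 of the Golgi, was lower, with a difference of -0.28 (limma, unadjusted p = 0.004). Of 11 zinc importers tested, 1 was higher at that threshold, with a median of 0.16, or 0.06 without PBS replicate 4. This was SLC39A7, which releases zinc from the endoplasmic reticulum, at 98.8 ± 17.7 FPKM in PBS and 121 ± 7.02 FPKM in gluconate tumors (SD, n = 4 each). Its log2 difference was 0.31 (limma, unadjusted p = 0.040, adjusted p = 0.740), and 0.17 without PBS replicate 4, which at 72.4 FPKM was the lowest library. The unadjusted p was under 0.05 in 11 of 15 alternatives and above it with the replicate block and without gluconate replicate 2, 3 or 4. The summed level of the zinc importers in PBS replicate 4 was 211 FPKM against 278 to 288 FPKM in the other PBS tumors. Of 11 copper handling genes, none had an unadjusted p under 0.05, and their median was 0.10, or 0.03 without PBS replicate 4, with the abundant SOD1 at 368 FPKM in PBS and 373 FPKM in gluconate tumors.

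Oxidative stress is the best known stimulus besides metals. Of 10 NRF2 targets, none had an unadjusted p under 0.05, and their median was 0.07, as it was over all genes tested. All 10 differences were above 0, beside 66.4% of all genes tested, but 4 were below 0 without PBS replicate 4 and 5 with scaling by median ratios. TXN, for thioredoxin, had means of 444 FPKM in PBS and 457 FPKM in gluconate tumors, and NQO1 had 68.9 and 81.9 FPKM. Among 7 genes responsive to interleukin-6 and STAT3, none had an unadjusted p under 0.05, with a median of 0.16. This median was 0.0003 without PBS replicate 4 and 0.06 without gluconate replicate 4.

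Of 9 glucocorticoid-responsive genes tested, 1 was higher at an unadjusted p under 0.05. The median log2 difference was -0.07, or -0.04 without PBS replicate 4, and ranged from -0.14 to 0.04 over the 15 alternatives. The higher gene was TSC22D3, a classical glucocorticoid target, at 3.71 ± 1.35 FPKM in PBS and 5.45 ± 0.644 FPKM in gluconate tumors (SD, n = 4 each). Its log2 difference was 0.63 (limma, unadjusted p = 0.048, adjusted p = 0.740), and 0.31 without PBS replicate 4, whose 1.76 FPKM was the lowest value. The unadjusted p was under 0.05 in 7 of 15 alternatives and rose above it without any one gluconate tumor, without PBS replicate 2, with the replicate block, with no filter and at a pseudocount of 0.01. FKBP5, another such target, had a log2 difference of 0.10.

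Of 8 heat shock genes tested, which encode chaperones and their partners, 5 had lower levels after gluconate (unadjusted p under 0.05 each) and none was higher, with a median log2 difference of -0.27, or -0.25 without PBS replicate 4. Over all genes tested 1.49% were lower at that p, and 3.36% without PBS replicate 4. The most abundant members were not among the 5: HSPA8, the constitutive HSC70, had a difference of -0.07 and HSPB1, a small heat shock protein, one of 0.11. The summed levels overlapped, from 2143 to 2354 FPKM in PBS and from 2061 to 2178 FPKM in gluconate tumors. BAG3, a co-chaperone, had 14.1, 14.9, 14.9 and 16.5 FPKM in PBS replicates 1 to 4 and 12.6, 11.5, 12.2 and 13.2 FPKM in gluconate replicates 1 to 4, with no overlap. Its log2 difference was -0.28 (limma, unadjusted p = 0.007, adjusted p = 0.740). HSPA1A and HSPA1B, near-identical copies that encode inducible HSP70 and whose reads cannot be kept apart with certainty, had differences of -0.29 and -0.30. HSPH1 had a difference of -0.25, and HSPA6, at 0.941 FPKM in PBS and 0.518 FPKM in gluconate tumors, one of -0.83. The adjusted p was 0.740 for all 5 (limma with Benjamini-Hochberg adjustment). BAG3 and HSPA1B kept an unadjusted p under 0.05 in all 15 alternatives. The count of lower genes ranged from 2 without PBS replicate 2 to 6 without PBS replicate 4, and the summed level was highest in PBS replicate 2.

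Genes beside the metallothionein cluster on chromosome 16 served to show the level of the region. Of 6 tested, all had small differences above 0 with a median of 0.09, and none had an unadjusted p under 0.05. NUDT21, an abundant neighbour, had 60.6 FPKM in PBS and 62.5 FPKM in gluconate tumors. The median of these neighbours turned to -0.04 without PBS replicate 4, with 5 of 6 below 0, and in that library their summed level was 137 FPKM against 193 to 195 FPKM in the other PBS tumors.

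**Figure D4:**
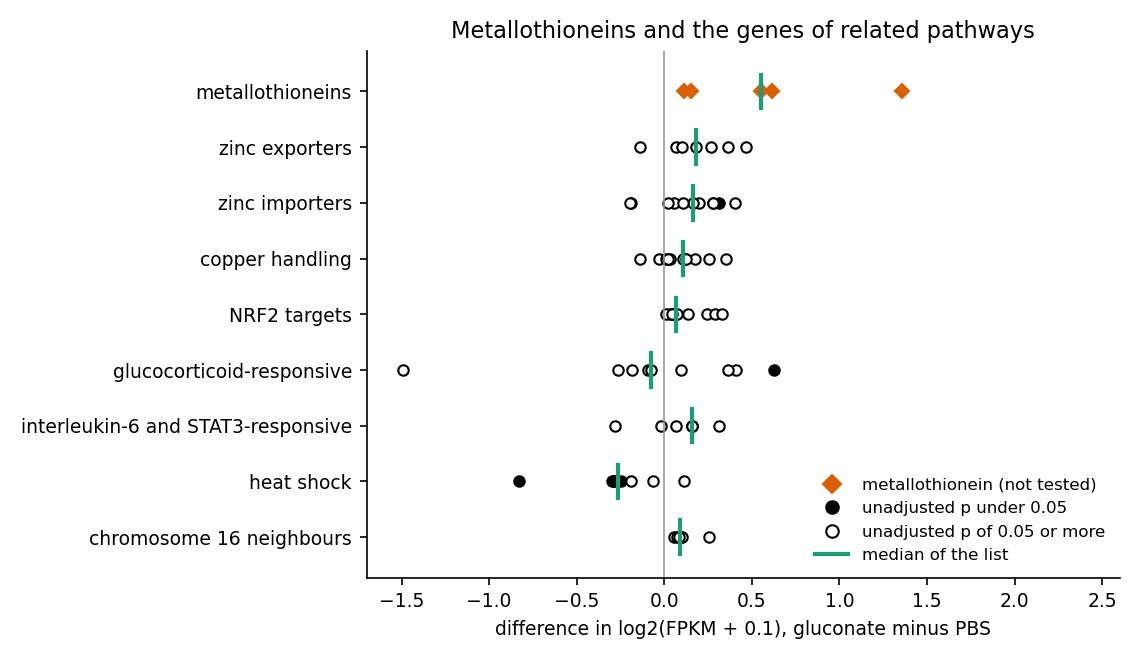
Difference in log2(FPKM + 0.1), gluconate minus PBS, for the metallothioneins (diamonds, not tested) and the genes of 8 related lists (circles, filled at an unadjusted p under 0.05), 1 point a gene, with the list median as a vertical line. The metallothioneins reach from 0.12 to 1.36 with a median of 0.55, the other lists have medians from -0.27 for heat shock to 0.18 for the zinc exporters, and the point at -1.49 is KLF9, which had 5.79 FPKM in PBS replicate 4 and at most 0.508 FPKM elsewhere.

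Markers of cells that could add metallothionein mRNA were examined in the same libraries. In bulk RNA, fewer cells of a type and less RNA per cell cannot be told apart, and whether mouse reads were removed is not given in the sources used here. Of 9 carcinoma markers, 7 were tested and 1 was higher at an unadjusted p under 0.05, namely KRT7, with a log2 difference of 0.73 (limma, unadjusted p = 0.020, adjusted p = 0.740), which was 0.48 without PBS replicate 4. The other 6 had log2 differences of 0.24 (MSLN), 0.13 (PAX8), 0.06 (EPCAM), -0.20 (KRT8), -0.33 (KRT18) and -0.67 (WT1), none at an unadjusted p under 0.05. PBS replicate 4 stood out in WT1 with 6.58 FPKM, while the other PBS tumors ranged from 1.07 to 1.82 FPKM, and without it the difference was -0.14. EPCAM turned to -0.15 without this library, and the median of the 7 from 0.06 to -0.14. KRT7 had 335, 234, 185 and 124 FPKM in PBS replicates 1 to 4 and 306, 293, 387 and 393 FPKM in gluconate replicates 1 to 4. The summed carcinoma markers overlapped, from 1808 to 2413 FPKM in PBS and from 1670 to 2180 FPKM in gluconate tumors.

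Hepatocytes are rich in metallothioneins. ALB, APOA1 and APOB were under 0.5 FPKM in every library. The 4 hepatocyte markers with a row summed to 1.91 to 2.56 FPKM in PBS and 1.78 to 3.55 FPKM in gluconate tumors. Among 8 fibroblast markers, COL1A2, DCN, PDGFRA and THY1 were under 0.5 FPKM throughout. The list summed to 44.7 to 184 FPKM in PBS and 164 to 190 FPKM in gluconate tumors, nearly all of it COL1A1. The 4 fibroblast markers tested had a median log2 difference of 0.46, or 0.14 without PBS replicate 4, which was the PBS library at 44.7 FPKM. No endothelial marker reached the minimum level, and their sum was 0.257 to 0.600 FPKM in PBS and 0.454 to 0.707 FPKM in gluconate tumors. PTPRC, CD14, CSF1R and LYZ of the myeloid list were under 0.5 FPKM in every library, and the list summed to 25.9 to 28.9 FPKM in PBS and 20.8 to 28.0 FPKM in gluconate tumors, mostly from CD68. The adipocyte list summed to 6.41 to 12.2 FPKM in PBS and 5.95 to 8.41 FPKM in gluconate tumors, mostly from LPL, with PLIN1 and FABP4 under 0.5 FPKM. Cells of the host are mouse cells, and the values refer to a human genome. Low values of these markers therefore do not show whether such host cells were present. The part of these cells in the metallothionein values was not tested.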

How the data were processed

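Bulk polyA RNA-seq of 4 PBS and 4 gluconate OVCAR8 tumors was used. The authors deposited 1 table of FPKM values for 24196 genes by symbol. The submitters' processing notes name GRCh38, and the aligner, the counter, the annotation and filters are not given in the sources used here. Every value was a whole multiple of the FPKM of 1 fragment (100% within a tolerance of 1e-04), which gave fragments per gene, library depth and exact 95% Poisson intervals. Fragments were not read for genes above 0 in fewer than 2 libraries, where a single value passes this check in any case.

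The 2 groups were compared by limma (version 3.58.1, R 4.3.3) for 12486 genes with a mean of at least 0.5 FPKM, on log2 values after adding 0.1, two-sided, with a trended prior, no replicate block and Benjamini-Hochberg adjustment over these genes. Folds on this scale understate the change of low genes. A check of the fit on simulated data used larger changes than those described here, so it does not bear on differences of this size. Genes were counted as higher or lower at an unadjusted p under 0.05 and 2-fold. Genes named by rule are the 8 members, list genes with an unadjusted p under 0.05 and up to 3 of the most abundant, and the 5 genes most alike. Others, such as SLC30A1, SLC30A7, FKBP5, KLF9, WT1, EPCAM and markers near 0, were named after their values were seen. Members and lists were chosen with earlier results of these data known. Python 3.11.15 with pandas 2.3.3 and scipy 1.17.1 did the rest. Alternatives were other pseudocounts, filters and scalings, a replicate block, and each library left out.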

Additional observations from a re-analysis of the deposited data

Results flagged for a closer look

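In groups of 4 libraries, a value was singled out where its gap to the nearest other library, divided by the range of the group, passed Dixon's 95% critical value. Of 56 groups examined 8 passed, where chance gives about 1 in 20, or 2.8. PBS replicate 4 accounted for 5 of them and gluconate replicate 4 for 2.

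Gluconate replicate 4 stood apart in MT1M, at 40.1 FPKM beside 15.5 to 17.4 FPKM in the other gluconate tumors, and in MT1F, at 7.91 FPKM beside 2.55 to 3.05 FPKM.

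PBS replicate 4 stood apart in its fragments on listed genes, 3944893 beside 39803633 to 46457636 in the other PBS tumors, and in its genes above 0, 15514 beside 20014 to 20117. The same library was low in the summed FPKM of zinc importers, 211 beside 278 to 288, of the chromosome 16 neighbours, 137 beside 193 to 195, and of endothelial markers, 0.257 beside 0.556 to 0.600. PBS replicate 2 was high in the summed FPKM of heat shock genes, 2354 beside 2143 to 2174. The cause of these departures was not tested.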

How the results depend on the processing

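All 75 alternative values of the 5 single members moved by less than the spread between replicates, MT1F turning to -0.21 without gluconate replicate 4. Leaving out 1 of 4 libraries cannot move a difference by more than this spread. The replicate block and the filters leave the difference of a single member unchanged. Most of these outcomes were thus fixed in advance, and stability is not read from them. The median log2 difference of the members was 0.28 to 0.55 under other settings, the lowest with no filter on low values, where MT1G and MT1H enter, and 0.41 to 0.73 with 1 library left out.

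The counts over all genes changed with the settings. The 24 genes higher in gluconate tumors became 5 at a pseudocount of 1, 61 with no filter, 14 with scaling by median ratios and 9 with quantile normalization. With 1 library left out they ranged from 3 without PBS replicate 4 to 63 without PBS replicate 1. The 13 lower genes became 3 at a pseudocount of 1 and 20 with quantile normalization, and ranged from 6 without gluconate replicate 3 (8 without PBS replicate 4) to 46 without PBS replicate 3. The 7 genes of the pathway and neighbour lists at an unadjusted p under 0.05 ranged from 4 to 13 with 1 library left out, the highest without PBS replicate 1 and the lowest without PBS replicate 2, gluconate replicate 2 or gluconate replicate 4. The causes were not tested.

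Whether replicate numbers pair the tumors cannot be decided with 4 libraries a group. Deviations from the group means correlated at -0.18, 0.08, 0.17 and -0.06 for replicates 1 to 4. Of 4 PBS libraries, 2 correlated best with their own number. With the replicate block 32 genes were higher and 15 lower, 7 list genes had an unadjusted p under 0.05, and the members' median was 0.55.

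Depth limits PBS replicate 4, where 3 fragments of MT1M equal 1.91 FPKM beside 0.162 to 0.192 FPKM in the others.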
